A study of Mus musculus with 9 samples.

Results

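The cytosolic ribosomal protein genes were taken as the rows of the count table whose symbol begins with Rpl or Rps and a number, together with Rplp0, Rplp1, Rplp2 and Rpsa. Processed copies marked -ps, the Rps6k kinases and Rps19bp1 were left out. This gave 91 of 23453 gene symbols, 54 of them named for the large ribosomal subunit (Rpl) and 37 for the small subunit (Rps, with Rpsa). The counts came from 9 bulk RNA-seq libraries of wild-type mouse cells in 3 states, with 3 libraries each. EpiLCs are epiblast-like cells made from naive embryonic stem cells and model the epiblast after implantation. They were grown for 48 h in N2B27 medium with 1% KSR (a serum replacement), FGF2 and ActivinA. aEpiLCs (anterior epiblast-like cells) were EpiLCs kept for a further 24 h in N2B27 basal medium without these factors, to which the study's methods add KSR. pEpiLCs (posterior epiblast-like cells) were EpiLCs kept for the same 24 h with CHIR99021, an agonist of Wnt signalling, and Activin. The study's methods list N2B27 with 1% KSR as the base medium of this state too, and name no FGF2 for it. The cell line was not named for these libraries, though the study names a line for other assays of these states. All libraries carry the EpiLC pre-culture, and EpiLCs of the later time were not analysed here. State and a day of further culture therefore cannot be told apart when either later state is set against EpiLC.

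A cytosolic ribosome is built from ribosomal RNA and one copy of nearly every ribosomal protein, so the genes of this family are transcribed at high and similar rates in growing cells. Many of their mRNAs begin with a C followed by a run of pyrimidines, the terminal oligopyrimidine (TOP) motif, through which mTOR signalling and LARP1 control their translation. A few family members have duplicated paralogs. Those of Rpl10 and Rpl39 are best known from male germ cells, in which the X chromosome is silenced, and Rpl3l from heart and skeletal muscle.

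The total count was 20560583 to 23417935 per library, with a median of 21675315. Values are given as CPM (a count relative to the library total, scaled by TMM over the 9 libraries), in which 3 counts, the detection limit, correspond to 0.13 to 0.143 CPM and cover counting error only. Pou5f1, the pluripotency gene that encodes OCT4, was at 789 to 1138 CPM in all 9 libraries. One library stood apart. T, a primitive streak gene, was at 1088 CPM in pEpiLC replicate 1 and at 204 and 219 CPM in pEpiLC replicates 2 and 3. The summed level of 8 mesoderm and endoderm markers ran from 93.1 to 1220 CPM within pEpiLC, with the top value in replicate 1, and from 0.99 to 3.74 CPM in the other states. The sum of 6 feeder fibroblast markers found in the table was 15.5 to 71.3 CPM over the 9 libraries, again highest in that library, where Pdgfra alone gave 51.6 CPM. The sums were 7.34 to 16.7 CPM for 5 extraembryonic endoderm markers, 20 to 39.8 CPM for 8 naive pluripotency markers and 23.3 to 160 CPM for 6 neural markers, and no marker of these lists was at or under the limit in every library. Evx1 was at 0 in all EpiLC and aEpiLC libraries. The part of these cells in the results was not tested. The main results that rest on pEpiLC are given with and without replicate 1. In bulk RNA, fewer cells of a type and less RNA per cell cannot be told apart.

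Of the 91 genes, 90 matched a single gene of the GENCODE vM21 annotation on GRCm38. These lie on 19 chromosomes. The annotation calls 85 protein coding, 3 processed pseudogenes (Rpl6l, Rps3a2 and Rps3a3) and 2 transcribed processed pseudogenes (Rpl37rt and Rps4l). Ribosomal protein genes have many processed copies in the genome, and RSEM shares reads that map to several places. Here 68 members (74.7%) had a fractional count in all 9 libraries, against 16% of all symbols with at least 90 counts. Their levels can include reads of a copy. Another 9 members, among them Rpl10l, Rpl39l, Rpl3l, Rpl7l1, Rpl8, Rps27l and Rps4l, had whole counts throughout, within 0.005.

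Autosomal copies of genes on the X chromosome differed between states. The family has 4 members on X. Each has an autosomal copy in the family, and all 4 copies were lower in aEpiLC and in pEpiLC than in EpiLC, where 22.6% and 21.4% of all genes tested were called lower. In pEpiLC, Rpl39l reached the filter on low counts only through EpiLC. Rpl39 (chrX:37082520-37085402, minus strand) encodes a very short protein at the exit tunnel of the large subunit, and its copy is Rpl39l (chr16:10170226-10174911, plus strand). Rpl10 (chrX:74270812-74273135, plus strand) encodes a late-joining protein of the large subunit, and its copy is Rpl10l (chr12:66283379-66284401, minus strand). Rps4x (chrX:102184941-102189394, minus strand) encodes a small subunit protein, with Rps4l (chr6:148354656-148355598, plus strand) as its copy. Rpl36a (chrX:134585654-134588062, plus strand) encodes a large subunit protein, with Rpl36al (chr12:69182731-69184083, minus strand) as its copy. Rpl10l and Rps4l are annotated with 1 exon, where Rpl10 and Rps4x have 7. Rpl36al has 2 exons against 5 in Rpl36a, and Rpl39l has 3, as does Rpl39.

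The first 60 coding bases of each pair (GENCODE vM21 transcripts) are printed to show how far reads can tell a copy from its X-linked partner. Capitals mark the bases at which the members of a pair differ.
Rpl39: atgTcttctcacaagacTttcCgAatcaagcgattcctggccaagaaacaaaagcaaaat
Rpl39l: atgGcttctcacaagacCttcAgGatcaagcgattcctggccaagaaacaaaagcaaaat
Rpl10: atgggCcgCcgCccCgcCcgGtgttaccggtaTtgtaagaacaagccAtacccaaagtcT
Rpl10l: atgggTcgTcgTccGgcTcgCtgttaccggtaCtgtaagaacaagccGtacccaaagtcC
Rps4x: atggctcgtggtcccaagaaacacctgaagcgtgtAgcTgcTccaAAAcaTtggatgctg
Rps4l: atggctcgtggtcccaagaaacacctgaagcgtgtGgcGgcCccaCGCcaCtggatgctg
Rpl36a: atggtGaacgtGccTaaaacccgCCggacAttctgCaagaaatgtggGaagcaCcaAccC
Rpl36al: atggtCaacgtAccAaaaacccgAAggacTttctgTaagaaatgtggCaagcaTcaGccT
Over the aligned bases, coding sequence except for the whole Rps4l transcript, identity was 85% for Rpl39 and Rpl39l (153 bases), 84.7% for Rpl10 and Rpl10l (642 bases), 79.9% for Rps4x and Rps4l (783 bases) and 87.7% for Rpl36a and Rpl36al (318 bases). The longest stretch without a difference was 38, 23, 35 and 24 bases in that order, shorter than a sequencing read. Rpl39l, Rpl10l and Rps4l had whole counts in all libraries. Rpl36al had fractional counts in all 9, and its exons overlap those of Gm49383 on the same strand. The Rps4l transcript, although classed as a pseudogene, holds a frame of 262 codons from its first ATG to a stop, where Rps4x has 263 codons.

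Rpl39l showed the largest fold change of the family. Its level was 12.9, 15.4 and 15.1 CPM in the 3 EpiLC libraries, 0.798, 1.08 and 1.56 CPM in aEpiLC, and 0.382, 0.608 and 0.919 CPM in pEpiLC. Behind these values stood 276 to 344 counts per EpiLC library, 17 to 34 per aEpiLC library and 8 to 20 per pEpiLC library. Every library of either later state lay below every EpiLC library. The level was 12.5-fold lower in aEpiLC than in EpiLC (log2 fold change -3.65 ± 0.20 SE, adjusted p = 1.54e-08, edgeR quasi-likelihood test with Benjamini-Hochberg adjustment over all genes tested). In pEpiLC the fitted level was 22.1-fold lower than in EpiLC (log2 fold change -4.47 ± 0.27 SE), given here as a description, since only 2 of the 3 pEpiLC libraries reached the filter on low counts and the gene was tested there through EpiLC. Without pEpiLC replicate 1, where both states reached the filter on their own, the log2 fold change was -4.21 ± 0.21 SE (adjusted p = 8.61e-10). aEpiLC and pEpiLC overlapped in Rpl39l. The log2 fold change of pEpiLC against aEpiLC was -0.84 ± 0.42 SE, again a description, since the gene reached the filter there through aEpiLC. Without pEpiLC replicate 1 it was -0.58 and did not pass the edgeR test (adjusted p = 0.37).

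Rpl10l followed the same order of states. It was at 36.4, 38.6 and 39.0 CPM in EpiLC, 8.26, 8.37 and 10.2 CPM in aEpiLC, and 8.39, 7.21 and 9.38 CPM in pEpiLC. The EpiLC libraries stood clear of the other 6, and the later states overlapped. Rpl10l was 4.24-fold lower in aEpiLC (log2 fold change -2.09 ± 0.10 SE, adjusted p = 6.81e-09) and 4.49-fold lower in pEpiLC (log2 fold change -2.17 ± 0.12 SE, adjusted p = 3.91e-05, and -2.17 also without pEpiLC replicate 1) than in EpiLC. Between pEpiLC and aEpiLC its log2 fold change was -0.10 ± 0.16 (adjusted p = 0.717), and -0.10 also without pEpiLC replicate 1.

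Rps4l and Rpl36al were more abundant per length of transcript and had smaller fold changes. Rps4l was at 511, 505 and 524 CPM in EpiLC, 314, 351 and 392 CPM in aEpiLC, and 279, 333 and 358 CPM in pEpiLC. It was 1.46-fold lower in aEpiLC (log2 fold change -0.54 ± 0.07 SE, adjusted p = 5.21e-05) and 1.56-fold lower in pEpiLC (log2 fold change -0.64 ± 0.09 SE, adjusted p = 0.00139) than in EpiLC, with a log2 fold change of -0.54 (adjusted p = 4.63e-07) without pEpiLC replicate 1. For Rps4l too, no library of a later state reached the EpiLC range. Rpl36al was at 287, 293 and 293 CPM in EpiLC, 207, 221 and 247 CPM in aEpiLC, and 184, 237 and 241 CPM in pEpiLC. It was 1.29-fold lower in aEpiLC (log2 fold change -0.37 ± 0.07 SE, adjusted p = 0.000577) and 1.3-fold lower in pEpiLC (log2 fold change -0.38 ± 0.10 SE, adjusted p = 0.0188) than in EpiLC. The Rpl36al call in pEpiLC was lost when any 1 of the EpiLC libraries was left out (adjusted p of 0.056, 0.0652 and 0.0649 without replicates 1, 2 and 3), while without pEpiLC replicate 1 its log2 fold change was -0.26 (adjusted p = 0.00045). The aEpiLC and pEpiLC comparisons share the EpiLC libraries, so they are not separate evidence.

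**Figure D1:**
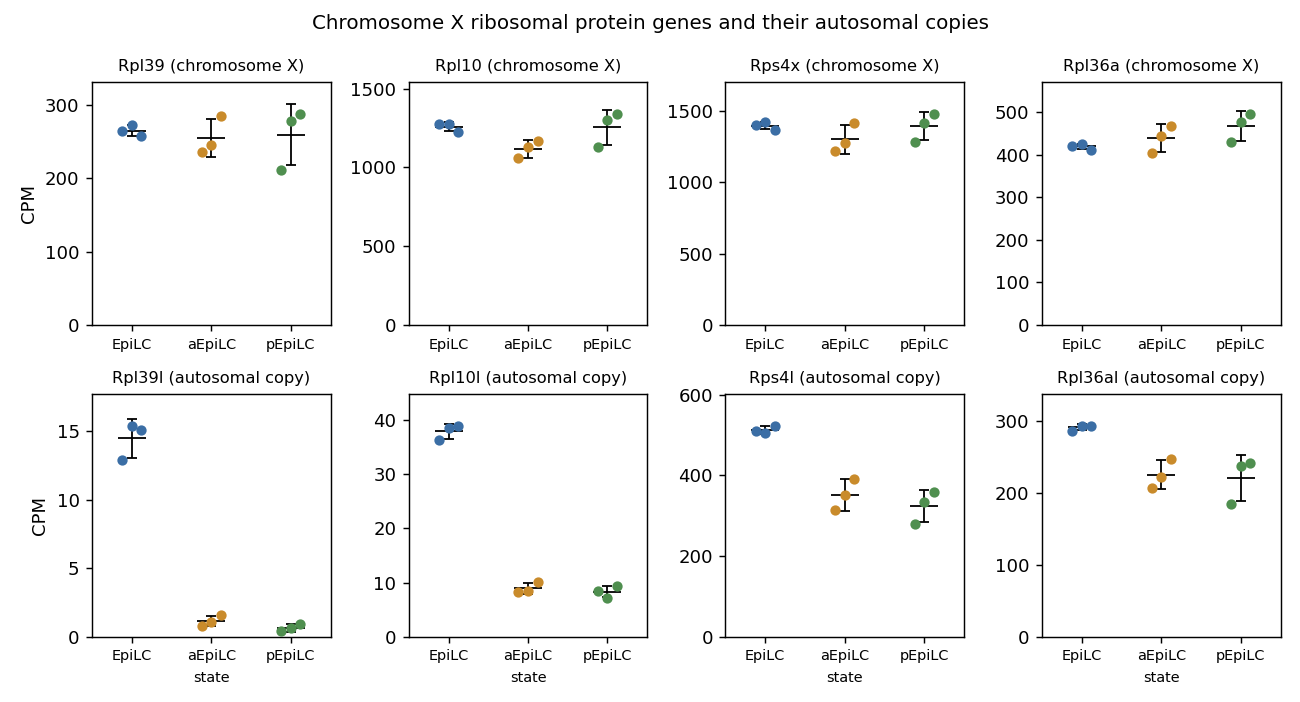
Levels (CPM, linear axes from 0) of the 4 ribosomal protein genes on the X chromosome (top row) and of their autosomal copies (bottom row) in each library, with a dot per library and the mean ± SD of the 3 libraries of a state in black. In all 4 copies the EpiLC dots lie above every aEpiLC and pEpiLC dot, whereas the EpiLC dots of the X-linked genes lie among those of at least one later state.

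Of the X-linked genes themselves, Rpl10 alone passed the test in these fits. Rpl39 was at 258 to 272 CPM in EpiLC, 236 to 285 CPM in aEpiLC and 211 to 288 CPM in pEpiLC, and all 3 states overlapped. Its log2 fold change was -0.05 ± 0.07 in aEpiLC (adjusted p = 0.568) and -0.01 ± 0.11 in pEpiLC (adjusted p = 0.949) against EpiLC, the latter becoming 0.12 (adjusted p = 0.0564) without pEpiLC replicate 1. Rpl10 was at 1276, 1276 and 1227 CPM in EpiLC and 1059, 1127 and 1169 CPM in aEpiLC, without overlap (log2 fold change -0.17 ± 0.06 SE, adjusted p = 0.0256). The Rpl10 call was lost with library totals (adjusted p = 0.0892), with 9 libraries in one fit, and without EpiLC replicate 1 or 2 or aEpiLC replicate 1 or 2 (0.09, 0.0797, 0.0676 and 0.0609). Against EpiLC, the log2 fold change of Rps4x was -0.10 ± 0.06 in aEpiLC (-0.16 and called lower, adjusted p = 0.0192, without aEpiLC replicate 3) and 0.02 ± 0.06 in pEpiLC (0.08 without replicate 1, adjusted p = 0.143). That of Rpl36a was 0.07 ± 0.06 in aEpiLC and 0.18 ± 0.06 in pEpiLC, where its adjusted p was 0.0517. Rpl36a passed in pEpiLC without replicate 1 (0.24, adjusted p = 0.000531), with library totals (0.21, adjusted p = 0.0268) and with the counts of processed copies added (0.18, adjusted p = 0.0494).

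Set per length of transcript, a copy can be expressed as a share of the pair. Rpl39l made up 5.72% ± 0.527 (SD, n = 3) of Rpl39 plus Rpl39l in EpiLC, 0.49% ± 0.116 in aEpiLC and 0.266% ± 0.0794 in pEpiLC. The share of Rpl10l was 2.3% ± 0.122, 0.619% ± 0.0503 and 0.517% ± 0.0761 in the same order of states. Neither gene was thus more than a small part of its pair in any state. Rps4l in contrast reached 31.3% ± 0.796 of its pair in EpiLC, 25.1% ± 0.758 in aEpiLC and 22.3% ± 0.955 in pEpiLC. Rpl36al reached 30.7% ± 0.498, 24.7% ± 0.523 and 23.1% ± 1.39. These shares use annotated transcript lengths (789 bases for Rps4l, 757 for Rpl36al) and are a description, with no test. Without pEpiLC replicate 1 the pEpiLC means were 0.298% for Rpl39l, 0.488% for Rpl10l, 22.8% for Rps4l and 23.9% for Rpl36al.

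The other paralogs of the list varied. Rpl3l, the muscle paralog of Rpl3, had the lowest summed count of all members, with 11 to 15 counts per EpiLC library, 2 to 7 per aEpiLC library and 2 to 9 per pEpiLC library. It passed the filter on low counts only through EpiLC, so that it could only come out lower there, and its fold change is not used. Rpl3 itself did not pass the test in any comparison with all 6 libraries, and was called higher in pEpiLC than in EpiLC without pEpiLC replicate 1 (0.13, adjusted p = 0.0113). Rps27l, a paralog of Rps27 known as a target of the tumour suppressor Trp53, was at 221 to 235 CPM in EpiLC, 232 to 278 CPM in aEpiLC and 212 to 275 CPM in pEpiLC, and it did not pass the test in aEpiLC (log2 fold change 0.16 ± 0.07, adjusted p = 0.0691) or in pEpiLC (0.17 ± 0.10, adjusted p = 0.201). Rps27l was higher in aEpiLC with library totals (0.22, adjusted p = 0.0186) and without aEpiLC replicate 2 (0.23, adjusted p = 0.0225), and in pEpiLC without replicate 1 (0.28, adjusted p = 0.000413). Rpl7l1, a paralog of Rpl7, was lower in aEpiLC than in EpiLC (log2 fold change -0.18 ± 0.06 SE, adjusted p = 0.0181), as was Rpl22 (-0.18 ± 0.06, adjusted p = 0.0313), whose product is an RNA-binding protein of the large subunit. The Rpl7l1 call was lost with library totals and without EpiLC replicate 1 or 3 or aEpiLC replicate 2 (adjusted p of 0.0611, 0.0544 and 0.083). That of Rpl22 was lost with library totals, with 9 libraries in one fit, and without EpiLC replicate 1 or 2 or aEpiLC replicate 1 or 2 (0.0802, 0.116, 0.111 and 0.0919). Rpl22l1, the paralog of Rpl22, did not pass (-0.16 ± 0.07, adjusted p = 0.0621), except without aEpiLC replicate 3 (-0.20, adjusted p = 0.0328). Rpl7 did not pass in any comparison with all 6 libraries, and was called lower in aEpiLC without aEpiLC replicate 3 (-0.16, adjusted p = 0.0269). Of the 8 paralogs of the list, 6 were lower in aEpiLC and 4 in pEpiLC than in EpiLC, where 22.6% and 21.4% of all genes tested were called lower. The 6 include Rpl3l and the 4 include Rpl39l, which passed the filter there through EpiLC, and 0 were higher by the edgeR test (1 and 0 at an unadjusted p below 0.05). The paralog list was drawn up with results of these libraries known.

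**Figure D2:**
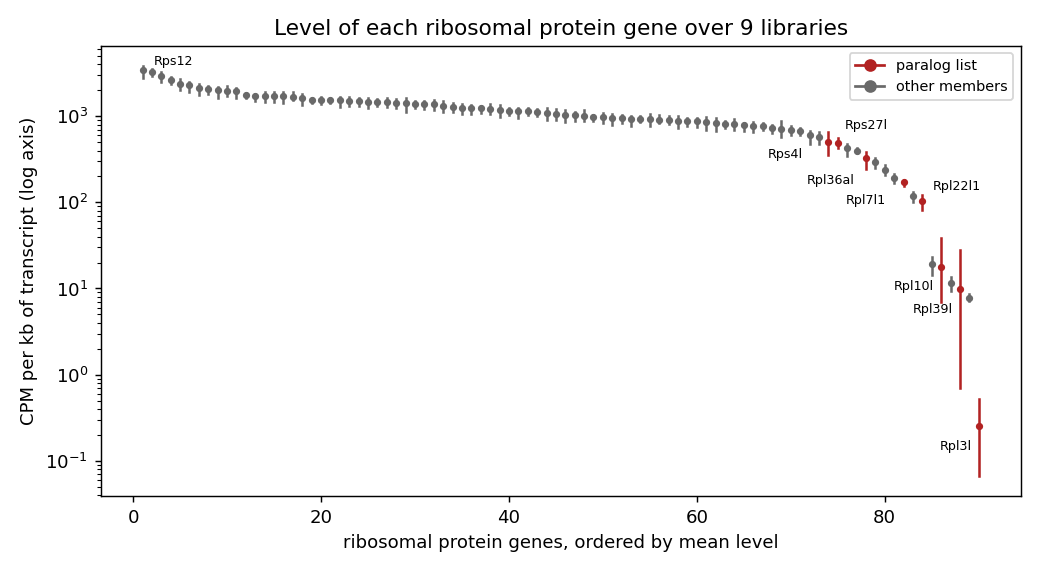
Mean level of 90 ribosomal protein genes over the 9 libraries, per kb of annotated transcript on a log axis, with a line from the lowest to the highest library. Most genes lie near 1043 CPM per kb, the median, with short lines, while the copies Rpl10l, Rpl39l and Rpl3l (red) lie at the low end with long lines.

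Per kb of transcript, the family spanned from 0.251 CPM per kb for Rpl3l to 3425 for Rps12, with a median of 1043 over the 90 genes with a length. Rps2 and Rplp1 followed Rps12 at 3266 and 2901 CPM per kb. Rps2, a small subunit protein near the mRNA entry site, had the highest count summed over the 9 libraries, at 3105 to 3535 CPM in EpiLC, 2931 to 3443 CPM in aEpiLC and 3155 to 3421 CPM in pEpiLC. As many as 84 members were at 100 CPM per kb or more. The 6 below it were Rpl37rt, Rpl10l, Rpl6l, Rpl39l, Rps27rt and Rpl3l, all of them copies by name or annotation. The annotated transcripts used for Rps15a and Rps20 are 5130 and 3706 bases long, so the per-length levels of these genes (119 and 240 CPM per kb) are understated if shorter transcripts are the ones made.

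The remaining genes moved together from library to library, and the steps within aEpiLC were at least as large as those between states. The 88 members with a mean of at least 5 CPM were summarised by the log2 difference of each gene from its own mean over the 9 libraries. Replicates 1, 2 and 3 of EpiLC had a median difference of 0.053, 0.131 and 0.072, those of aEpiLC -0.201, -0.088 and 0.037, and those of pEpiLC -0.116, 0.051 and 0.064. In aEpiLC replicate 1, only 1 of the 88 genes lay above its own mean, against 83 in EpiLC replicate 2 and 78 in pEpiLC replicate 3. Small and large subunit genes followed each other in each library, for example at -0.207 and -0.199 in aEpiLC replicate 1 and at 0.131 and 0.136 in EpiLC replicate 2. The family median ranged over 0.24 within aEpiLC and 0.18 within pEpiLC, on the log2 scale. The genes of the mitochondrial ribosome, transcribed from separate nuclear genes, had medians of -0.09, -0.087 and 0.025 in the aEpiLC libraries and -0.129, 0.014 and 0.03 in pEpiLC. The median of all other genes of at least 5 CPM stayed between -0.008 and 0.013. TMM scaling is built to hold the bulk of genes level, so this is no separate contrast to the family.

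**Figure D3:**
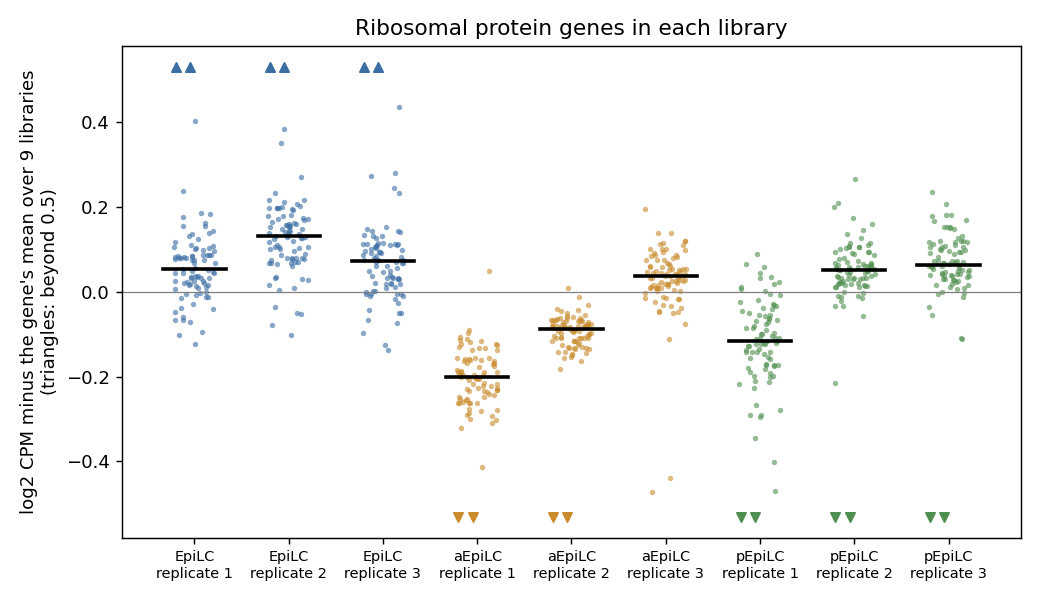
Each dot is 1 of 88 ribosomal protein genes in 1 library, as the log2 CPM minus the mean of that gene over the 9 libraries, with the median of each library as a black bar. Triangles stand for 16 of 792 values beyond 0.5. The medians of aEpiLC replicates 1 and 2 and of pEpiLC replicate 1 lie below 0 and those of the other 6 libraries above it.

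The share of all counts that fell on the family gave the same picture. It was 8.48%, 8.91% and 8.44% in EpiLC, 7.51%, 7.90% and 8.61% in aEpiLC, and 8.01%, 8.63% and 8.89% in pEpiLC. The states overlapped when a possible pairing of libraries is left aside. The mean share was 8.61% ± 0.259 (SD, n = 3) in EpiLC, 8.004% ± 0.558 in aEpiLC and 8.51% ± 0.454 in pEpiLC. Exact two-sided permutation tests, for which 3 against 3 libraries cannot give a p below 0.1, gave 0.3 for aEpiLC against EpiLC, 0.8 for pEpiLC against EpiLC and 0.2 for pEpiLC against aEpiLC. The labels do not say that libraries of the same replicate number belong together. Pairing by number was inferred from weak correlations of the same pEpiLC and aEpiLC libraries (0.213, 0.15 and 0.114, at most 0.069 between different numbers). In pairs formed this way the share was higher in pEpiLC in 3 of 3, by 0.501, 0.735 and 0.281 percentage points (exact two-sided sign-flip test, p = 0.25, the smallest that 3 pairs can give). Without pEpiLC replicate 1, pEpiLC exceeded EpiLC by 0.151 percentage points instead of falling short of it (-0.1), and exceeded aEpiLC by 0.757 in place of 0.506 points. Rows of processed copies held a further 0.192% to 0.228% of counts. Mitochondrially encoded genes took 1.55% to 1.71% of counts in EpiLC and 2.17% to 2.45% in the later states, and their part in the family's share was not tested.

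Gene by gene, 44 of the 91 members (48.4%) were lower in aEpiLC than in EpiLC at an adjusted p below 0.05, where 22.6% of all 15301 genes tested were called lower. The test called 0 members higher, with 24% of all genes called higher, and 1 member was higher at an unadjusted p below 0.05. DESeq2, the edgeR likelihood ratio test and limma voom also gave 0 higher and 49, 44 and 47 lower. Of all genes, they called 21.7%, 24.9% and 24% higher and 21.8%, 23.2% and 22.6% lower. The median log2 fold change of the members was -0.17 against 0.002 for all genes tested. Apart from the copies described above the differences were small, within 0.4 in size. The 44 include Rpl3l, which could only come out lower. The count depended on single libraries. It was 69 without aEpiLC replicate 3 and 29, 18, 25 and 26 without EpiLC replicate 1, EpiLC replicate 2, aEpiLC replicate 1 and aEpiLC replicate 2 (with 1 higher in the last). Of all genes, 22.1% were called lower without aEpiLC replicate 3, and 19.4%, 18.2%, 19.8% and 19.3% in the refits named after it. Scaling by library totals gave 26 lower and 1 higher, with 18.6% and 28.1% of all genes. The 17 members called lower in all 18 refits included Rpl10l, Rpl39l, Rps4l and Rpl36al and, of the core family, Rpl6, Rpl7a, Rpl8, Rpl14, Rpl21, Rpl27, Rpl30, Rpl34, Rps7, Rps12, Rps15a and Rps16. No such count over all genes is given, so the 17 cannot be set against other genes. At a fold limit of 1 on the log2 scale, 3 members were lower (Rpl39l, Rpl10l and Rpl3l), against 5.24% of all genes, and the last of them was tested only because of its EpiLC counts. The 3 libraries of a state are not said to be separate cultures, so these p-values measure the spread between the libraries.

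Both subunits contributed, with 28 of 54 large subunit genes and 16 of 37 small subunit genes lower in aEpiLC, where 22.6% of all genes tested were called lower. Rps12, a protein of the small subunit beak, was among them. It was at 1786, 1844 and 1755 CPM in EpiLC and 1366, 1485 and 1559 CPM in aEpiLC. These libraries did not overlap, and the log2 fold change was -0.29 ± 0.06 SE (adjusted p = 0.0017). Its exons overlap those of Snora33 and Snord100, so its count may hold reads of these genes.

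The stalk proteins recruit translation factors to the large subunit. Rplp0, the base of the stalk, was at 3200, 3159 and 3079 CPM in EpiLC, 2623, 2864 and 2932 CPM in aEpiLC, and 3286, 3297 and 3433 CPM in pEpiLC. It was lower in aEpiLC than in EpiLC (log2 fold change -0.16 ± 0.06 SE, adjusted p = 0.0352), a call lost without any 1 of EpiLC replicates 1, 2 and 3 or aEpiLC replicates 1 and 2, and with library totals (-0.11, adjusted p = 0.109). Its partners Rplp1 and Rplp2 had log2 fold changes of -0.15 (adjusted p = 0.0926) and -0.20 (adjusted p = 0.0158). The Rplp2 call was lost with library totals and without EpiLC replicate 2 or aEpiLC replicate 2 (adjusted p of 0.075 and 0.0669). Rpsa, a small subunit protein also known as the laminin receptor, was at 2953, 3084 and 2965 CPM in EpiLC and 2343, 2618 and 2814 CPM in aEpiLC (-0.21 ± 0.07 SE, adjusted p = 0.0211). The Rpsa call was lost with library totals (adjusted p = 0.0536) and without EpiLC replicate 1, 2 or 3 or aEpiLC replicate 1 (0.0534, 0.0802, 0.05 and 0.0512). Rpl5 and Rpl11, which as a free complex bind MDM2, had log2 fold changes of -0.16 (adjusted p = 0.0447) and -0.22 (adjusted p = 0.0123). The Rpl5 call was lost with library totals, with 9 libraries in one fit, and without EpiLC replicate 1, 2 or 3 or aEpiLC replicate 1 or 2 (adjusted p of 0.0944, 0.12, 0.105, 0.127 and 0.0792), and that of Rpl11 with 9 libraries in one fit and without EpiLC replicate 2 (0.0699 and 0.0558). Rpl38, known for its part in the translation of Hox mRNAs, and Rps27a, which is made as a fusion with ubiquitin, did not pass (adjusted p = 0.0909 and 0.124). Without aEpiLC replicate 3, Rplp1 (-0.22, adjusted p = 0.00593), Rpl38 (-0.24, adjusted p = 0.00951) and Rps27a (-0.20, adjusted p = 0.00957) were called lower.

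**Figure D4:**
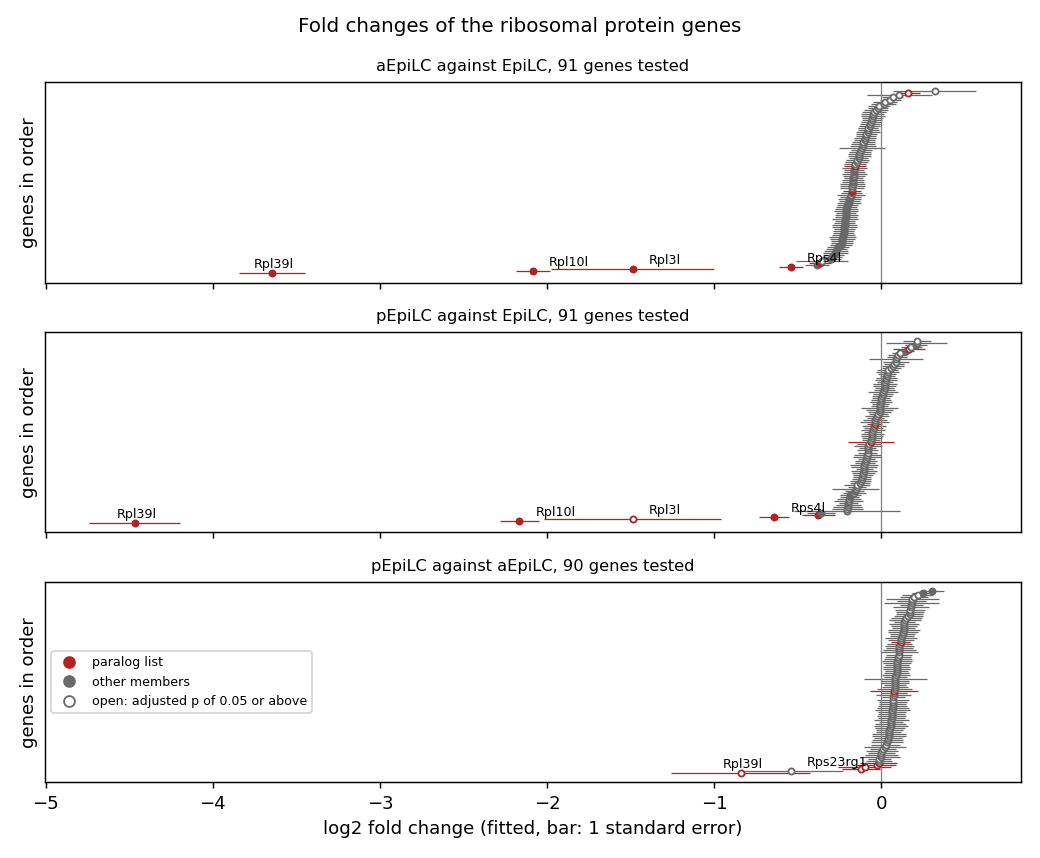
Fitted log2 fold change of each ribosomal protein gene tested in each comparison, ordered from lowest to highest, with a bar of 1 standard error. Filled dots passed an adjusted p of 0.05 and red marks the paralog list. Most genes lie within 0.4 of 0, and Rpl39l, Rpl10l and Rpl3l lie far below it in both comparisons with EpiLC, Rpl3l having been tested only through its EpiLC counts.

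In pEpiLC against EpiLC, 9 of 91 members (9.89%) were lower and 2 were higher, where 21.4% and 22.8% of 15288 genes were called in these directions, and the median log2 fold change of the members was -0.05 (0.017 for all genes). The lower genes included the 4 autosomal copies with Rpl6, Rpl8, Rpl30 and Rplp2. Without EpiLC replicates 1, 2 and 3 in turn, 5, 4 and 4 were lower and 0, 1 and 0 higher, with 15.6%, 14.2% and 14% of all genes lower and 16.2%, 15.3% and 14.9% higher, and without pEpiLC replicate 2 or 3 none was higher, with 19.5% of all genes higher in both refits. Among the called members, Rpl39l and Rpl10l were lower by at least 1 on the log2 scale, against 8.13% of all genes, Rpl39l having reached the filter through EpiLC. The higher genes were Rps20 (829, 905 and 811 CPM in EpiLC, 898, 989 and 1004 CPM in pEpiLC, log2 fold change 0.21 ± 0.07 SE, adjusted p = 0.0367) and Rps26 (961, 1021 and 1033 CPM in EpiLC, 1095, 1090 and 1099 CPM in pEpiLC, log2 fold change 0.15 ± 0.05 SE, adjusted p = 0.0457), both proteins of the small subunit head or platform. The Rps20 libraries overlapped between states and those of Rps26 did not. The Rps20 call was lost in 8 of 18 refits. These left out EpiLC replicate 1 or 3 or pEpiLC replicate 2 or 3, or used upper-quartile factors, the likelihood ratio test, 9 libraries in one fit or the replicate block. The Rps26 call was lost in 13 of 18 refits. It was lost without any 1 of EpiLC replicates 1, 2 and 3 and pEpiLC replicates 2 and 3. The other losses came with upper-quartile or RLE factors, no filter, at least 10 counts per library, DESeq2, the likelihood ratio test, 9 libraries in one fit and the replicate block.

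Leaving out pEpiLC replicate 1 changed the higher calls of this comparison most, though not the lower ones. Then 11 members were higher and 12 lower, with 26.6% and 26% of all genes, and the median of the members was 0.009. The 11 included Rps20, Rps26, Rps27, Rps27l, Rpl3, Rpl32, Rpl36a, Rpl37a, Rplp0 and Rplp1. Scaling moved the split too. Upper-quartile factors gave 0 higher and 15 lower, with 19.6% and 24.5% of all genes, and library totals gave 5 higher and 7 lower, with 24.3% and 20.1%. In contrast, Rpl10l and Rps4l were called lower in all 18 refits.

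The posterior and anterior states were compared directly in pEpiLC against aEpiLC. Of 90 members tested, 2 (2.22%) were higher in pEpiLC than in aEpiLC, against 6.28% of 15198 genes, and 0 were lower, against 9.3%. No member was lower at an unadjusted p below 0.05 in edgeR or at an adjusted p in DESeq2, the likelihood ratio test or limma voom. The median log2 fold change of the members was 0.08 (0.012 for all genes). Rps12 was at 1366, 1485 and 1559 CPM in aEpiLC and 1710, 1851 and 1873 CPM in pEpiLC (log2 fold change 0.30 ± 0.07 SE, adjusted p = 0.0311). Rplp0 was the other (0.25 ± 0.07 SE, adjusted p = 0.0443). For both genes the pEpiLC libraries lay above all aEpiLC libraries, and Rplp0 in pEpiLC did not pass against EpiLC (0.11 ± 0.05, adjusted p = 0.0991), though it did without pEpiLC replicate 1 (0.12, adjusted p = 0.0159).

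Neither call was firm against the choice of libraries. The count fell to 0 when any 1 of aEpiLC replicates 1, 2 and 3 or pEpiLC replicates 2 and 3 was left out, with 1.79% to 4.64% of all genes called higher, and rose to 7 without pEpiLC replicate 1, when the percentage of all genes called higher was 8.81%. The 7 included Rps12, Rplp0, Rplp1, Rpl10, Rps15a and Rps27. With the replicate number as a block, a pairing inferred from these libraries and not given in the labels, 4 members were higher. Among them were Rps12, Rplp0 and Rplp1, with 6.51% of all genes called higher.

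Because the family moved as a whole, each gene was also tested with the libraries scaled to the summed family count, so that a called member departed from its own family. In aEpiLC against EpiLC, 10 of 91 members (11%) departed, where 42.3% of all genes were called on that scale. Of these, 6 were lower, among them Rpl39l, Rpl10l, Rps4l, Rpl36al and Rpl8, and 4 higher (Rps27l, Rpl36a, Rps26 and Rps20). On that scale the log2 fold change was -3.49 for Rpl39l, -1.93 for Rpl10l, -0.38 for Rps4l, -0.21 for Rpl36al, 0.32 for Rps27l and 0.23 for Rpl36a. In aEpiLC Rpl36a and its copy Rpl36al departed from the family in opposite directions. In pEpiLC against EpiLC, 13 of 91 departed (14.3%, against 40.4% of all genes), 8 lower and 5 higher. The highest of them were Rps27 (0.25, adjusted p = 0.0143), Rps20 (0.25, adjusted p = 0.00612) and Rpl36a (0.22, adjusted p = 0.012). In pEpiLC against aEpiLC, Rps12 alone departed (0.20, adjusted p = 0.0385), with 13.7% of all genes called. No member departed there without any 1 of the 6 libraries, and with the replicate block Rps12 and Rps4l did, the latter lower (-0.22, adjusted p = 0.0414). Without pEpiLC replicate 1, 17 members departed in pEpiLC against EpiLC, and without EpiLC replicates 1, 2 and 3 in turn 8, 7 and 6. In aEpiLC against EpiLC 6, 5, 5 and 5 departed without EpiLC replicates 1, 2 and 3 and aEpiLC replicate 2. No share of all genes is given for these refits on the family scale, so their counts are a description.

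The start of the transcript is where the TOP motif would lie. A transcript was counted as beginning with it where its first base is C and at least 4 further bases are C or T. In GENCODE vM21, 35 of 90 members (38.9%) have at least one annotated transcript of that kind, against 7.99% of all 22803 symbols with a match and 8.97% of mitochondrial ribosomal protein genes. Members have more annotated transcripts (a median of 6 against 3), which raises this share. For the single main transcript the shares were 12.2% and 2.13%. Annotated starts need not be the starts used, and the share of real TOP mRNAs cannot be read from them. None of the 8 paralogs has such a start. The first 24 bases of 4 abundant members are shown as examples, with the pyrimidine run in capitals.
Rps12: CCTTCaccccgttcatgggtgaga
Rps2: CTTCTTCTTCTTCgggagaacacg
Rpl32: CTTCCTTCTTCCTCggcgctgcct
Rps24: CTCTTTTCCTCCTCTCCagctccg
In aEpiLC against EpiLC, 22.6% of all genes tested were called lower. The 35 members with such a start had a median log2 fold change of -0.17 there, and 18 were lower. The 55 others had a median of -0.17, and 26 were lower. In pEpiLC against aEpiLC the medians were 0.083 and 0.082. In pEpiLC against EpiLC they were -0.026 and -0.073. There 0 of the 35 were higher and 2 lower, and 2 of the 55 were higher and 7 lower. Of all genes tested, 22.8% were called higher and 21.4% lower in that comparison.

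The counts of called genes in related lists are to be read against all genes tested, of which 22.6% were lower and 24% higher in aEpiLC against EpiLC, 21.4% and 22.8% in pEpiLC against EpiLC, and 9.3% and 6.28% in pEpiLC against aEpiLC. Of 3 ribosomal proteins named otherwise, 2 were lower in aEpiLC than in EpiLC. Fau, which is made as a fusion with a ubiquitin-like protein, was one (log2 fold change -0.22 ± 0.07 SE, adjusted p = 0.0178), and Rack1 did not pass in any comparison. None of the 3 passed in the comparisons with pEpiLC (1 against aEpiLC and 0 against EpiLC at an unadjusted p below 0.05), and 1 was higher than in EpiLC without pEpiLC replicate 1. Of 17 other TOP mRNAs, 7 were lower and 1 higher in aEpiLC, among them the poly(A)-binding protein gene Pabpc1 (-0.46 ± 0.06 SE, adjusted p = 2.87e-05) and the elongation factor gene Eef1d (-0.43 ± 0.06 SE, adjusted p = 6.02e-05). In pEpiLC against EpiLC 4 were lower and 2 higher, and in pEpiLC against aEpiLC edgeR called 0, with 5 at an unadjusted p below 0.05 and 2 higher and 1 lower without pEpiLC replicate 1. Of 78 mitochondrial ribosomal protein genes, 31 were lower and 4 higher in aEpiLC, 19 lower and 6 higher in pEpiLC, and 4 higher and 0 lower in pEpiLC against aEpiLC (2 lower at an unadjusted p below 0.05). Of 13 regulators of TOP translation, a list that includes the member Rps6, 6 were lower in aEpiLC, 2 lower and 1 higher in pEpiLC against EpiLC, and 1 higher in pEpiLC against aEpiLC. Larp1, which binds TOP mRNAs, was one of them (-0.57 ± 0.06 SE, adjusted p = 6.29e-06), and so was Eif4ebp1, an mTOR-controlled repressor of translation (-0.67 ± 0.11 SE, adjusted p = 0.000203). Both were also lower in pEpiLC than in EpiLC (-0.39 and -0.94, adjusted p = 0.0027 and 0.00327, and -0.35 and -0.75 without pEpiLC replicate 1). Of 6 host genes of small nucleolar RNAs, whose spliced transcripts often carry a TOP motif, 5 were lower in aEpiLC, with Snhg1 at -1.03 ± 0.09 SE (adjusted p = 6.53e-07) and Gas5 at -0.98 ± 0.08 SE (adjusted p = 3.56e-07), 4 were lower and 1 higher in pEpiLC against EpiLC, and 3 were higher in pEpiLC than in aEpiLC.

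Of 38 processed copies tested, 4 were lower in aEpiLC and 0 were higher, and 0 of 38 and 0 of 39 were called in the comparisons of pEpiLC with aEpiLC and EpiLC, with 1 and 3 at an unadjusted p below 0.05 and 1 and 2 higher without pEpiLC replicate 1. Of 10 Rps6k kinase genes, which share a name but are not part of the ribosome, 3 were lower and 2 higher in aEpiLC, 2 lower and 1 higher in pEpiLC against EpiLC, and 1 lower in pEpiLC against aEpiLC. Rps6kl1, a kinase-like gene, was at 30.5 CPM in EpiLC and 9.67 CPM in aEpiLC (log2 fold change -1.65 ± 0.15 SE, adjusted p = 1.91e-06). Without pEpiLC replicate 1, the counts against EpiLC were 5 higher and 5 lower for the other TOP mRNAs, 11 higher and 20 lower for the mitochondrial ribosomal protein genes, 4 higher and 3 lower for the Rps6k genes, 2 higher and 3 lower for the regulators, and 1 higher and 4 lower for the small nucleolar RNA host genes, with 26.6% of all genes higher and 26% lower. Against aEpiLC they were 6 higher and 0 lower for the mitochondrial ribosomal protein genes, 4 higher and 0 lower for the small nucleolar RNA host genes, and 1 higher and 1 lower for the regulators and for the Rps6k genes, with 8.81% of all genes higher and 12.8% lower.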

How the data were processed

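The authors sequenced paired-end RNA-seq libraries, and used STAR 2.7.9a against GRCm38 for alignment and RSEM 1.3.1 for quantification. What they deposited were expected counts per gene symbol for 9 libraries, without normalization, rounded here to whole numbers. Annotation, read cleaning and strandedness are not given in the sources used here. Analyses used DESeq2 1.42.0, limma 3.58.1 and edgeR 4.0.16 in R 4.3.3. Each pair of states was fitted on its own 6 libraries with TMM, filterByExpr and edgeR's quasi-likelihood test, with Benjamini-Hochberg adjustment over all genes. A gene was called at an adjusted p below 0.05. The standard error of a log2 fold change was its size divided by the square root of F. A second fit scaled libraries to the summed count of the members. The procedure was tested on simulated data.

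The members and lists were chosen with earlier results of these data known. Named members were those called with a log2 fold change of at least 1 in size, the 5 in each direction with the largest change among called members of at least 5 CPM whose states did not overlap, the 3 in each direction departing most from the family, the highest and lowest, and a set of members and paralogs with known roles. Further genes are named where a count is spelled out, after their values were seen. Alternatives were other scalings, filters and tests, 9 libraries in one fit, the replicate block, adding processed copies to their parent gene and leaving out each library. The labels give replicate numbers and no pairing. Pairing of pEpiLC and aEpiLC by number was inferred from weak correlations of deviations from the state means (0.213, 0.15 and 0.114 for numbers 1, 2 and 3). No such sign was seen in the other comparisons. The RefSeq promoter table held 67 of 91 members (73.6%), under the 80% needed, so a check of promoter motifs was void, and transcript starts were used. Some called genes are not reported here by name. The paired test of the share of counts was added after seeing the data.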

Additional observations from a re-analysis of the deposited data

How the results depend on the processing

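Across the alternatives, the medians of the members and the differences in their share of counts moved by less than 1 SD of the libraries. Leaving out a single library cannot move a share difference that far, so this is no measure of stability. Leaving out each library gave medians of 0.03 to 0.15 for pEpiLC against aEpiLC, -0.23 to -0.11 for aEpiLC against EpiLC and -0.08 to 0.01 for pEpiLC against EpiLC, and share differences of 0.256 to 0.807, -0.907 to -0.357 and -0.289 to 0.151 percentage points. Counts of called members moved more. For pEpiLC against aEpiLC, the 2 higher members became 0 with upper-quartile factors or a fold limit, 1 with TMM from other genes, with no filter or with at least 10 counts per library, 4 with the replicate block, and 0 to 7 without single libraries. In the same order, apart from the fold limit, 5.53%, 6.41%, 3.78%, 6.04%, 6.51% and 1.79% to 8.81% of all genes were called higher. The main fit called 6.28% higher. The 1 departing member became 3 with 9 libraries in one fit, 0 in DESeq2, 2 with the replicate block and 0 without any single library. For aEpiLC against EpiLC, the 44 lower members became 26 with library totals (1 higher), 27 with 9 libraries in one fit, 3 with the fold limit and 18 to 69 without single libraries (0 to 1 higher), and the 10 departing ones 5 to 11. Of all genes, 18.6%, 17.1%, 5.24% and 18.2% to 22.1% were called lower in these refits, in the same order, and 22.6% in the main fit. For pEpiLC against EpiLC, the 2 higher members became 5 with library totals, 1 with RLE factors, no filter, at least 10 counts or DESeq2, 0 with upper-quartile factors, the likelihood ratio test, 9 libraries in one fit, the replicate block or the fold limit, and 0 to 11 without single libraries. Of all genes, 24.3% were called higher with library totals, 14.4% with no filter and 19.6% with upper-quartile factors or the replicate block. Without single libraries the share was 14.9% to 26.6%. It was 21.6% to 22.8% in the other refits named, apart from the fold limit, and 22.8% in the main fit. The 9 lower members became 15 with upper-quartile factors, 2 with the fold limit and 4 to 12 without single libraries, and the 13 departing ones 8 with the replicate block and 6 to 17 without single libraries. Of all genes, 24.5%, 8.13% and 14% to 26% were called lower in these refits, in the same order. For departing members no share of all genes is given beside the refits. The cause of these shifts was not tested. In the comparisons with EpiLC the replicate numbers did not pair the libraries.

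Among 86 fold changes of named members, refits gave 1423 values on the same side of the threshold, 87 that lost it and 34 that gained it, and no called value changed sign. Low counts limit Rpl3l and, in pEpiLC, Rpl39l.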
